A study of Homo sapiens with 4 samples.

Results

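The genes examined were 35 human genes of DNA double-strand break repair by homologous recombination, Fanconi anemia crosslink repair, mismatch repair, base excision repair and the checkpoint kinases that signal DNA damage, chosen by symbol. Of these, 30 were measured among 18377 genes, each by the 1 probe set that the platform annotation assigns to that symbol alone. ATRIP, the binding partner of ATR, is named only in a probe set that also carries a second symbol, and BRCA2, RBBP8, FANCA and FANCD2 were not analysed here. The samples were from MOLM-14, an established line of human acute myeloid leukemia, given the solvent DMSO (2 arrays) or DZNep at 2 µM (2 arrays) for 24 h and profiled on Affymetrix whole-transcript arrays. DZNep, 3-deazaneplanocin A, inhibits S-adenosylhomocysteine hydrolase and is used to deplete the histone methyltransferase EZH2. All samples are 1 cell line, and the labels call them biological replicates without saying whether each came from its own culture. The p-values therefore reflect the variation among these 4 arrays, part or all of which may be technical.

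Homologous recombination copies an intact sister chromatid to mend a broken one, and it works in S and G2 phase, when a sister is present. BRCA1 with BARD1, and then PALB2 and BRCA2, act at the break before the strands are exchanged. The Fanconi core complex attaches ubiquitin to FANCD2 and FANCI at DNA crosslinks, mismatch repair corrects copying errors behind the replication fork, and base excision repair removes single damaged bases. ATM and ATR are the apical kinases that sense breaks and single-stranded DNA, and CHEK2 and CHEK1 are the kinases they activate. Transcripts of many of these genes are known to rise as cells enter S phase.

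Most of the measured genes were lower with DZNep, by less than 2-fold, while both apical kinases ATM and ATR did not pass the test. Of the 30 genes, 18 fell (limma, Benjamini-Hochberg adjusted p of 0.05 over all genes), where 6.68% of all genes tested fell. The falls ran from 1.28-fold for FANCG to 1.93-fold for CHEK1, and 7 genes fell by at least 0.8 on the log2 scale. None rose, where 3.62% of all genes did (10.3% changed in either direction), and 1 of the 30, MSH3, was higher at an unadjusted limma p of 0.05. The median log2 change of the 30 genes was −0.46, against 0.02 over all genes. Among the 9840 genes within the level range of the 30, 10.1% fell. Both DZNep arrays lay below both DMSO arrays for 23 of the 30, where 23.9% of all genes tested did, and the arrays overlapped for 6. Both lay above for 1, MSH3, where 25.9% of all genes did. On the same arrays 20 of 23 S phase markers fell, and in bulk samples fewer cells in S phase and less RNA per cell cannot be told apart. The genes were chosen with earlier results of these data known, so the counts describe them and are no test.

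Over all probe sets, the 4 arrays had median log2 intensities between 6.99 and 7.07, and the SD of the log2 difference between arrays of a group was 0.20 (DMSO) and 0.14 (DZNep) over all genes, and 0.14 and 0.10 over the 30. The number of arrays, 2 in each group, limits the precision of every value. The 10 measured myeloid markers had DMSO means on the log2 scale from 6.71 (CD14) to 12.24 (LYZ, lysozyme). The receptor kinase FLT3 fell by 0.94 on that scale (limma adjusted p = 0.000535), LYZ rose by 0.53 and the growth factor receptor CSF1R by 0.47 (limma adjusted p of 0.0114 and 0.0128), and the other 7 did not pass. Of 16 markers of T, B, erythroid, epithelial, fibroblast and endothelial cells, 12 were under a log2 intensity of 7 on every array. The 4 above it were KRT18, KLF1, COL1A1 and PECAM1. The summed log2 of all 16 was 107.4 and 109.1 with DMSO and 110.4 and 109.7 with DZNep. The 1 that changed was PECAM1, an adhesion molecule also found on monocytes, which rose by 0.99.

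**Figure D1:**
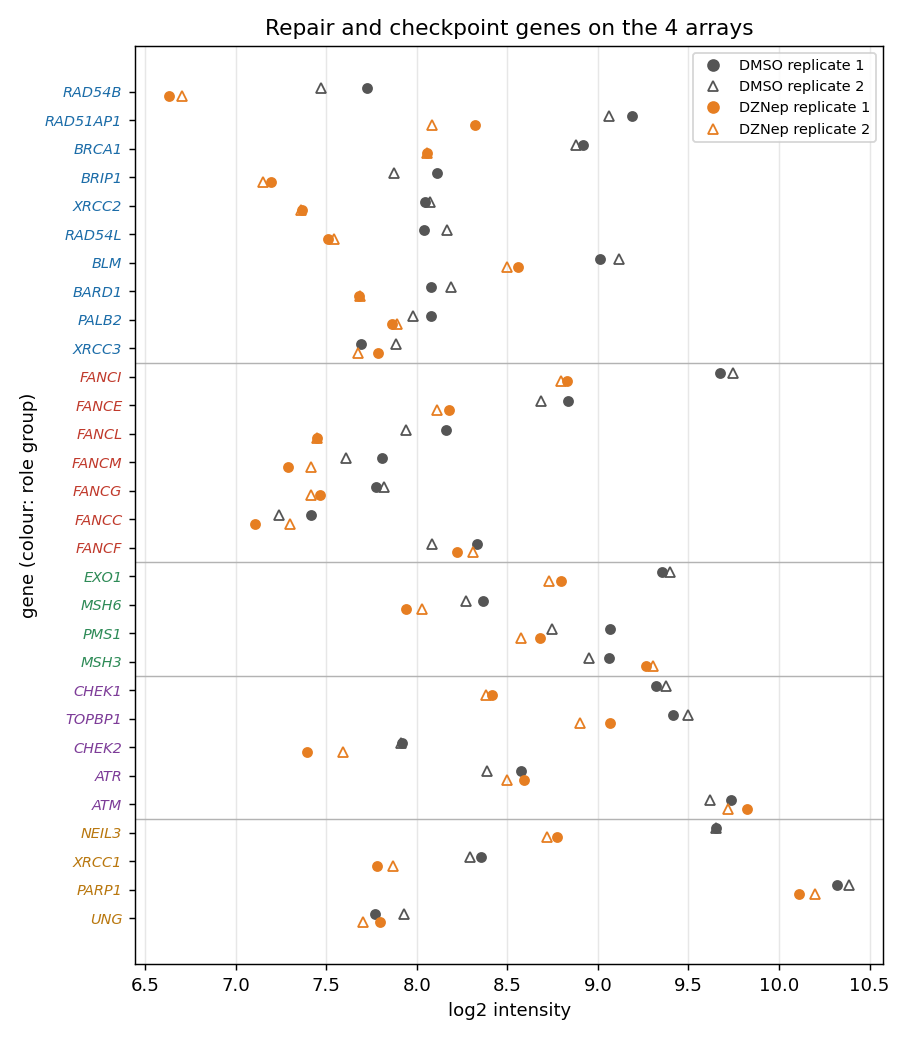
Log2 intensity (horizontal axis) of the 30 measured genes (vertical axis, coloured by role group) on each of the 4 arrays; grey marks are DMSO and orange marks DZNep, with circles for replicate 1 and triangles for replicate 2. For 23 genes both orange marks lie to the left of both grey marks, and MSH3 is the 1 gene with both to the right.

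The promoters of the 30 genes were searched for the letters bound by E2F factors, which drive S phase genes. The 8-letter form was TTTCCCGC, TTTGGCGC, TTTCGCGC or TTTGCCGC, and the 7-letter form the same words without the first T, so that every 8-letter match is also a 7-letter match. Both strands were read in windows from 250 bases before to 50 after the RefSeq start (GRCh38.p14), and 28 of the 30 genes had a window, RAD54B and FANCI being the others. The stretches shown end before a RefSeq start site and run 5′ to 3′ on the gene's strand. E2F letters and CCAAT boxes (CCAAT or ATTGG) are in capitals. For UNG, CHEK1 and FANCL that start lies inside the gene's annotated span. The UNG and CHEK1 stretches therefore lie within the span, and the FANCL stretch overlaps it in part. The first 4 stretches belong to genes that fell, the next 2 to genes that did not pass the test, and the last to the gene with the largest fall, which has no E2F letters in its windows. They lie at chr12:4538823-4538889 (RAD51AP1, plus strand), chr1:46247593-46247687 (RAD54L, plus), chr15:90717226-90717324 (BLM, plus), chr2:58241372-58241470 (FANCL, minus), chr12:109098063-109098162 (UNG, plus), chr1:226408094-226408157 (PARP1, minus) and chr11:125626078-125626174 (CHEK1, plus).
RAD51AP1: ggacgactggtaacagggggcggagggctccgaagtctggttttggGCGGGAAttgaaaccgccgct
RAD54L: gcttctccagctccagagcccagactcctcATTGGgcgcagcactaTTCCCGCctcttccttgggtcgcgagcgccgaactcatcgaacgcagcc
BLM: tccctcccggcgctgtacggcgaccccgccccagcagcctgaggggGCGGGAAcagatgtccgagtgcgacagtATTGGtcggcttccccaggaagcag
FANCL: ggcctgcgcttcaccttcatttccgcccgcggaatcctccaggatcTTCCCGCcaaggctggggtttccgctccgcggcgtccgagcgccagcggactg
UNG: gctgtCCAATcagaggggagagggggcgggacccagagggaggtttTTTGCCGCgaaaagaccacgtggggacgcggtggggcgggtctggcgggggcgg
PARP1: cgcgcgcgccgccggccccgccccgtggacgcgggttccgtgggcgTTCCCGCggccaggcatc
CHEK1: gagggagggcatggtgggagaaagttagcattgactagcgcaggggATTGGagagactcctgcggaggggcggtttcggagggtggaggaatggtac

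The 7-letter form was in the windows of 13 of the 16 genes that fell and 8 of the 12 that did not pass. It was in 13% of all promoter windows, in 30.6% of all genes tested that fell and in 20.3% of those not called. The 8-letter form was in 3 of the 16 (XRCC2, EXO1 and TOPBP1) and in 4 of the 12 (FANCC, MSH3, MSH6 and UNG). It was in 11.2% of all genes tested that fell, 5.08% of those not called and 3.31% of all windows. Of the genes that fell, CHEK1, CHEK2 and NEIL3 had neither form. CCAAT boxes were in 9 of the 16 and 8 of the 12, against 49.9% of all genes that fell, 41.6% of those not called and 34.6% of windows. The Sp1-type word GGGCGG, on either strand, was in all 16 and in 8 of the 12, against 77.6% of all genes that fell, 65% of those not called and 45% of windows. The mitotic element TTTGAA was in 3 of the 16 and 3 of the 12, against 17.9%, 15.4% and 15.2%. A gene can have several windows and counts if any of them holds the word. GGGCGG can overlap the E2F word GCGGGAA. These matches describe letters, not binding.

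Among recombination genes, 8 of the 10 measured fell, with a median log2 change of −0.64, and the falls covered early, middle and late steps. RAD54B, a motor protein that helps strand exchange, had a log2 intensity of 7.73 and 7.47 with DMSO and of 6.63 and 6.71 with DZNep. The DZNep arrays are both lower by more than the DMSO arrays differ from each other. It fell 1.90-fold (limma, log2 change −0.93, SE 0.11, adjusted p = 0.00107). RAD51AP1, which stimulates joining of the invading strand, read 9.19 and 9.06 with DMSO and 8.32 and 8.08 with DZNep, a 1.90-fold fall (limma, SE 0.11, adjusted p = 0.0011). Its groups did not overlap, and its DZNep arrays were the farthest apart of the 30 genes, with an SD of 0.17. BRCA1, the tumour suppressor that starts the pathway, read 8.92 and 8.88 with DMSO and 8.06 and 8.05 with DZNep, both pairs almost equal. Its fall was 1.79-fold (limma, log2 change −0.84, SE 0.09, adjusted p = 0.000672). BRIP1, the helicase bound to BRCA1 and also known as FANCJ, read 8.11 and 7.87 with DMSO against 7.20 and 7.15 with DZNep, a 1.76-fold fall (limma, SE 0.11, adjusted p = 0.0017).

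Other recombination genes fell by less. XRCC2, which acts in strand exchange, had a log2 change of −0.70, RAD54L, the motor protein related to RAD54B, one of −0.58, and BLM, the helicase that dissolves crossover intermediates, one of −0.53 (limma adjusted p of 0.00173 to 0.00844). BARD1, the obligate partner of BRCA1, fell by 0.45 on the log2 scale (limma adjusted p = 0.0173). That call ended without DZNep replicate 1 or DZNep replicate 2, though the change stayed at −0.45 and −0.46. The call of BLM ended without DZNep replicate 2, at −0.50. In fits with 1 DZNep array left, the adjusted p of the genes that lost their call followed the size of the log2 change. A call lost in those fits, here and below, therefore marks a change under a cut in size, not a measured spread of that gene. PALB2, which links BRCA1 to BRCA2, had a change of −0.15 (limma adjusted p = 0.425), with a 95% interval from −0.37 to 0.06. XRCC3, which acts at the same step, had one of −0.06 (limma adjusted p = 0.822, interval −0.30 to 0.18), and its arrays overlapped. These intervals, like those given for other genes, are not adjusted for the number of genes.

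Of the Fanconi genes 4 of 7 fell, with a median of −0.36, and FANCI moved most. FANCI, which is clamped on DNA with FANCD2 once ubiquitin is attached, read 9.68 and 9.75 with DMSO and 8.83 and 8.80 with DZNep. The gap between the groups far exceeds the gap within either. Its fall was 1.87-fold (limma, log2 change −0.90, SE 0.09, adjusted p = 0.000535). FANCL, the ubiquitin ligase of the core complex, read 8.16 and 7.94 with DMSO and 7.45 on both DZNep arrays, a 1.52-fold fall (limma, SE 0.11, adjusted p = 0.0071). FANCE, the core subunit that contacts FANCD2, read 8.84 and 8.68 with DMSO and 8.18 and 8.11 with DZNep, a 1.53-fold fall (limma, SE 0.10, adjusted p = 0.00492). In both genes every DZNep array was below every DMSO array.

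The other core subunits were closer to their controls. FANCG fell by 0.36 on the log2 scale (limma adjusted p = 0.0418), but leaving out any 1 of the arrays ended that call, at changes of −0.33 to −0.38. It also ended with an intensity trend (0.0505), with the replicate number as a block (0.0593) and with 16 subtracted from the intensities (0.0753). FANCM, the translocase that anchors the core complex at forks, read 7.81 and 7.61 with DMSO and 7.29 and 7.42 with DZNep. Its groups did not overlap, its log2 change was −0.36, as large as that of FANCG, and it missed the threshold (limma adjusted p = 0.0701). It passed without DMSO replicate 2 (0.0339, change −0.45). FANCC had a change of −0.13 (interval −0.38 to 0.12) and FANCF one of 0.05 (interval −0.20 to 0.31), and the arrays of both overlapped.

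Mismatch repair genes moved unequally. EXO1, the exonuclease that removes the mismatched strand and also resects broken ends, read 9.36 and 9.40 with DMSO and 8.80 and 8.73 with DZNep. It was the 1 of the 4 that fell, 1.53-fold (limma, log2 change −0.61, SE 0.09, adjusted p = 0.00358). MSH6, which recognises single mismatches, read 8.36 and 8.27 with DMSO and 7.94 and 8.03 with DZNep. Its log2 change was −0.33 (limma adjusted p = 0.0638), which passed without DMSO replicate 2 (0.0487), without the dimmest 25% of genes (0.0481), under quantile (0.0479) or cyclic loess normalization (0.0401), and with an intensity trend (0.048). MSH3, which recognises insertion and deletion loops, read 9.06 and 8.95 with DMSO and 9.27 and 9.30 with DZNep. It is the 1 gene of the 30 with both DZNep arrays above both DMSO arrays. Its log2 change was 0.28 (limma adjusted p = 0.114, interval 0.06 to 0.49), and it passed as higher under quantile (0.0351) or cyclic loess normalization (0.0457) and with an intensity trend (0.0464). PMS1, a MutL homolog, read 9.06 and 8.74 with DMSO and 8.68 and 8.57 with DZNep. Its change was −0.28 (limma adjusted p = 0.221), and −0.44 without DMSO replicate 2 (0.0349), where 3 of the 4 genes passed. The median of the 4 was −0.30, and −0.41 to −0.20 without 1 array.

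**Figure D2:**
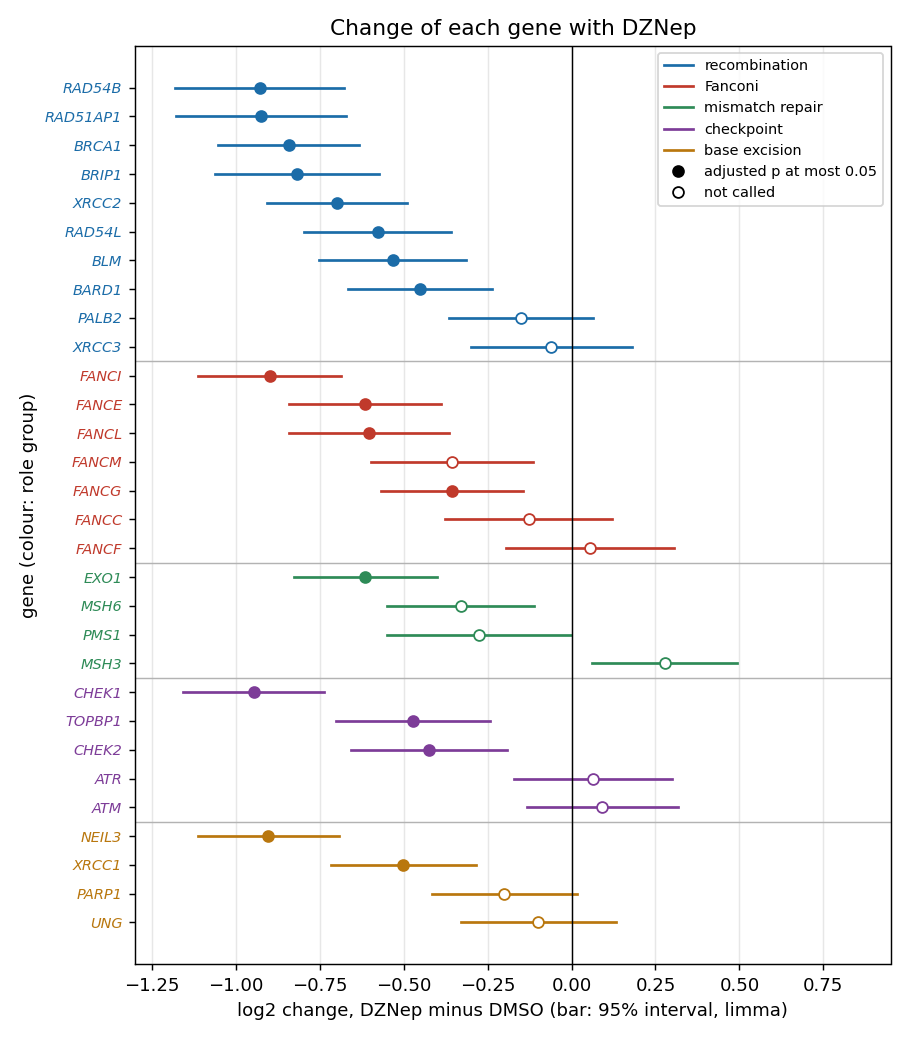
Log2 change, DZNep minus DMSO (horizontal axis), of each of the 30 genes (vertical axis, coloured by role group), with its 95% interval from limma as a bar; filled points have an adjusted p of at most 0.05. CHEK1 is lowest at −0.95, ATM and ATR lie at 0.09 and 0.06, and MSH3 lies farthest right at 0.28.

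In the checkpoint group, CHEK1, CHEK2 and the activator TOPBP1 fell, and the 2 apical kinases did not pass. CHEK1, the kinase that halts the cycle when forks stall, read 9.32 and 9.38 with DMSO and 8.42 and 8.38 with DZNep. No other gene of the 30 had a larger fall, and its change ranked 142 from the lowest among the 18377 genes tested. It fell 1.93-fold (limma, log2 change −0.95, SE 0.09, adjusted p = 0.000396). TOPBP1, the scaffold that switches ATR on, read 9.41 and 9.50 with DMSO and 9.07 and 8.90 with DZNep. It fell 1.39-fold (limma, log2 change −0.47, SE 0.10, adjusted p = 0.0185), and the call ended without DZNep replicate 2, at −0.39.

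CHEK2, the kinase that ATM activates at breaks, read 7.92 on both DMSO arrays and 7.39 and 7.59 with DZNep. It fell by 0.42 on the log2 scale (limma, SE 0.10, adjusted p = 0.0314). The call ended without DMSO replicate 1, DMSO replicate 2 or DZNep replicate 1, at changes of −0.42, −0.42 and −0.32. It also ended with 16 subtracted from the intensities (limma adjusted p = 0.0642). CHEK2 has near-identical pseudogene copies, so its value is uncertain. ATM read 9.74 and 9.62 with DMSO and 9.82 and 9.72 with DZNep, and ATR read 8.58 and 8.39 against 8.59 and 8.50. The arrays of both overlapped between the groups. The change was 0.09 for ATM (limma adjusted p = 0.686, interval −0.13 to 0.32) and 0.06 for ATR (adjusted p = 0.806, interval −0.17 to 0.30), so falls as large as those of CHEK1, TOPBP1 or CHEK2 lie outside both intervals. The sign for ATR turned, to −0.03, without DMSO replicate 2.

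Among base excision genes 2 of 4 fell. NEIL3, a glycosylase active in proliferating cells that also unhooks crosslinks, read 9.65 on both DMSO arrays and 8.77 and 8.72 with DZNep. The groups stand far apart and the arrays within each are almost equal. Its fall was 1.87-fold (limma, log2 change −0.90, SE 0.09, adjusted p = 0.000514). XRCC1, the scaffold of single-strand break repair, read 8.36 and 8.29 with DMSO and 7.78 and 7.87 with DZNep, a 1.42-fold fall (limma, SE 0.10, adjusted p = 0.0108). That call ended without DZNep replicate 1, at −0.46. PARP1, the polymerase that flags strand breaks with ADP-ribose, read 10.32 and 10.39 with DMSO and 10.11 and 10.20 with DZNep. The groups did not overlap, but the change of −0.20 did not pass (limma adjusted p = 0.266, interval −0.42 to 0.02). UNG, which cuts uracil out of DNA, read 7.77 and 7.93 with DMSO and 7.80 and 7.70 with DZNep, with overlapping arrays and a change of −0.10 (limma adjusted p = 0.67, interval −0.33 to 0.13).

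Pairs of repair or checkpoint genes, some but not all of them partners or paralogs, were compared within each array, as the log2 difference between both genes. The SE of a pair comes from that pair's array values alone, whereas the limma SE of a gene also draws on all genes. The precision of pairs and of single genes therefore cannot be compared through their SE. The 7 pairs that could be measured were tested with the exact permutation test, whose smallest p is 0.33 with 2 arrays in each group, so no pair could pass. MSH6 fell behind MSH3 by 0.61 (SE 0.03), the difference going from −0.70 and −0.68 with DMSO to −1.32 and −1.27 with DZNep. XRCC2 minus XRCC3 went from 0.36 and 0.19 to −0.42 and −0.32, a shift of −0.64 (SE 0.10). UNG minus NEIL3 shifted by 0.80 (SE 0.08), from −1.88 and −1.72 to −0.98 and −1.02. In these 3 pairs the groups did not overlap.

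CHEK1 minus CHEK2 went from 1.40 and 1.46 to 1.02 and 0.79, a shift of −0.52 (SE 0.12), and BRCA1 minus BARD1 from 0.84 and 0.69 to 0.38 and 0.37, a shift of −0.39 (SE 0.07). RAD54L minus RAD54B went from 0.32 and 0.69 to 0.88 and 0.84, a shift of 0.35 (SE 0.19). Its DMSO arrays differed by more than the shift itself. For these 6 pairs the exact two-sided permutation p was 0.33, the smallest it can give (0.389 adjusted over 7 pairs). ATM minus ATR overlapped between the groups, with a shift of 0.03 (SE 0.04, exact permutation p = 1), which was −0.0088 without DMSO replicate 1.

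**Figure D3:**
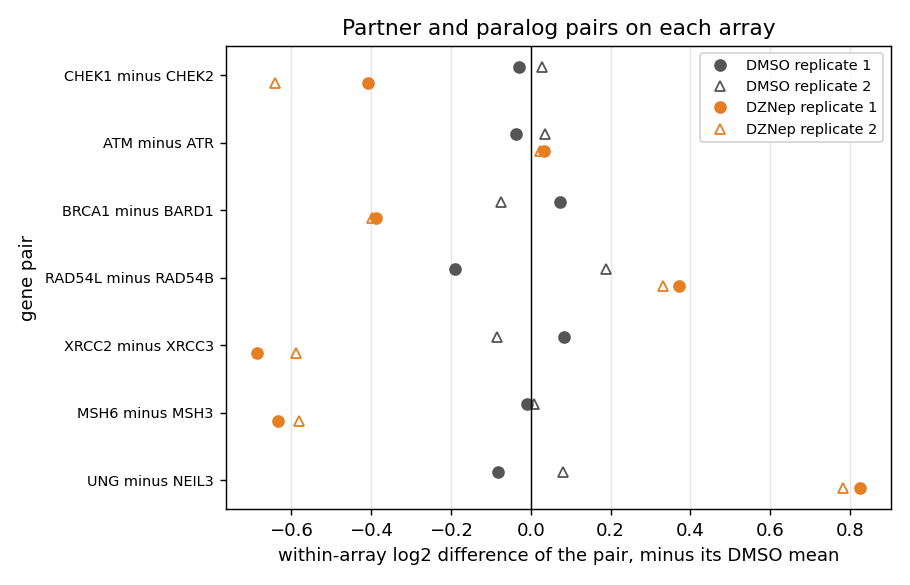
Within-array log2 difference between both genes of a pair (horizontal axis), with the pair's DMSO mean set to 0, for 7 pairs (vertical axis); grey marks are DMSO and orange marks DZNep arrays. Both DZNep arrays stand apart from both DMSO arrays in 6 pairs, and for ATM minus ATR the arrays overlap.

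Further genes of each pathway were taken from lists that do not hold the 30 genes. Their counts stand beside 6.68% of all genes that fell. Of 28 other recombination genes 8 fell and none rose, with a median log2 change of −0.19, led by RMI1, a partner of BLM, at −0.88, EME1, a nuclease subunit, at −0.81 and ABRAXAS1, a BRCA1-binding scaffold, at −0.77. Without DZNep replicate 1 this count was 4. Of 12 other Fanconi genes 3 fell (median −0.04), namely UBE2T, which hands ubiquitin to FANCL, at −0.77, the core subunit FANCB at −0.56 and USP1, which takes ubiquitin off FANCD2 and FANCI, at −0.52. The call of FANCB ended without DMSO replicate 1 (change −0.47) or DZNep replicate 1 (−0.39). It also ended with 16 subtracted from the intensities (limma adjusted p = 0.0559). The call of USP1 ended without DZNep replicate 2 (change −0.47). Of 13 other mismatch repair genes, a list that includes the clamp loader and polymerase subunits of replication, 5 fell (median −0.30), led by the clamp loader subunits RFC3, RFC4 and RFC5 at −0.66, −0.65 and −0.61.

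Of 18 other checkpoint genes 4 fell (median −0.19). TIMELESS, CLSPN and TIPIN, which hold the stalled fork together and pass the signal to CHEK1, had changes of −1.14, −0.81 and −0.53 (limma adjusted p of 0.000211, 0.00113 and 0.00954). Without DZNep replicate 1 this count was lower, and TIPIN, at −0.47, was among those lost. None of 18 other base excision genes passed in either direction (limma; 2 were lower and 0 higher at an unadjusted p of 0.05), with a median of 0.07, or −0.01 without DMSO replicate 1. The largest change there was MUTYH, an adenine glycosylase, at −0.28 (limma adjusted p = 0.102). The shares that fell in 2 pathways outside the 35 genes can be read against the 6.68% of all genes and the 10.1% of genes in the level range of the 30. Of 10 end joining genes PRKDC alone fell (10%), at −0.55 (median −0.16), and it encodes the DNA-dependent kinase. Of 16 nucleotide excision genes 2 fell (12.5%; median −0.13), GTF2H3, a subunit of the repair factor TFIIH, at −0.61 and MMS19, an iron-sulfur carrier, at −0.46. The call of MMS19 ended without either DZNep array and without DMSO replicate 1, at changes of −0.50 to −0.39.

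Genes that mark the cell cycle moved alongside. Of 23 S phase markers 20 fell and none rose, with a median of −0.74, and all 23 had both DZNep arrays below both DMSO arrays. Their mean log2 intensity was 9.17 and 9.25 with DMSO and 8.45 on both DZNep arrays. CDC6, which loads the replicative helicase, had a log2 change of −1.71, the primase subunit PRIM1 one of −1.34 and the helicase factor CDC45 one of −1.31. Of 16 mitosis markers, 9 did not pass and 7 fell (median −0.39), among them BUB1 at −0.82, CCNB2 at −0.72 and CDK1 at −0.66. Their mean log2 intensity was 8.86 and 9.14 with DMSO against 8.62 and 8.63 with DZNep, and the count was 11 without DMSO replicate 1 and 4 without any other 1 array. For comparison, the 30 genes had array means of 8.59 and 8.54 with DMSO and 8.13 and 8.12 with DZNep. The part of the S phase markers in the changes of the repair genes was not tested.

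**Figure D4:**
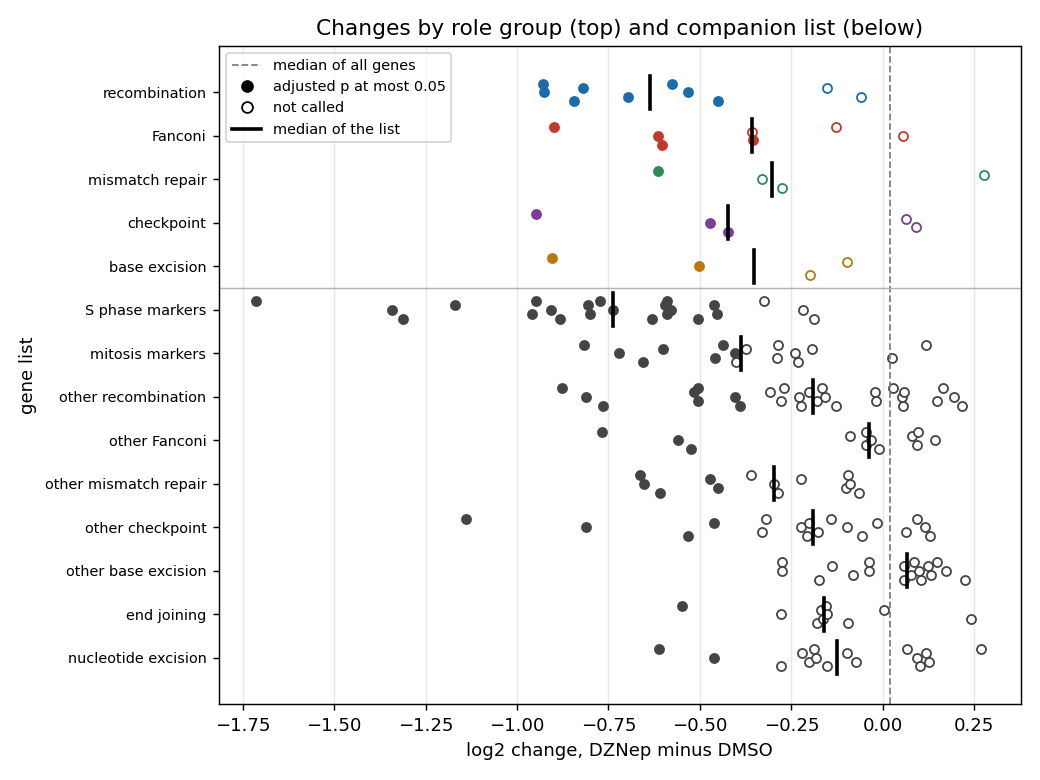
Log2 change, DZNep minus DMSO (horizontal axis), of every measured gene in the 5 role groups (top) and 9 companion lists (below); points are genes, filled where the adjusted p is at most 0.05, black ticks are list medians and the dashed line is the median of all genes. The S phase markers have the lowest median, −0.74, followed by the recombination group at −0.64, while the other base excision genes centre at 0.07 with no filled point.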

How the data were processed

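The deposited values are intensities on a linear scale, 1 for each probe set on each array. The authors made them with RMA, per the submitters' processing notes, which give no version here. The lowest intensity was 18.1 to 18.5 on every array. Log2 was taken with no pseudocount. The platform annotation, which can be old, gives 1 symbol to 19310 of 28869 probe sets and several to 1752, and does not list 7807. A gene is represented by its single-symbol probe set of highest mean log2. Groups and replicate numbers come from the sample titles. The test was limma 3.58.1 (R 4.3.3), with group as the only term, two-sided, adjusted by Benjamini-Hochberg over 18377 genes, with 2 residual and 7.18 prior degrees of freedom; the fit was checked on simulated data. All genes of the list are named. Array values are given for the 4 largest changes in each role group and for the 4 kinases, and companion genes are named by the 3 largest called changes, or 1 where none passed. The genes and lists were chosen with earlier results of these data known. Promoter sequences are RefSeq's (GRCh38.p14).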

Additional observations from a re-analysis of the deposited data

How the results depend on the processing

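Among the 30 genes, 14 to 19 fell when 1 array was left out (14 without either DZNep array) and 16 to 20 under the other settings, against 18. All 18 kept a negative change under every setting run, and 12 of them kept their call without each array in turn. The count of higher genes was 1 under quantile normalization, cyclic loess and an intensity trend, and 0 without any 1 array. The median of −0.46 was −0.44 under quantile normalization, −0.48 with 16 subtracted before log2, and −0.48 to −0.45 without 1 array. Over all genes, leaving out 1 array gave 734 to 1662 lower (734 without DZNep replicate 1) and 336 to 776 higher (439 without DZNep replicate 1, 336 without DZNep replicate 2), against 1227 and 665. Signs turned without 1 DMSO array for log2 change of XRCC3 (−0.158 to 0.0379), FANCF (−0.0705 to 0.18) and ATR (−0.0316 to 0.16), for median log2 change of other base excision genes (−0.0113 to 0.0719) and for ATM minus ATR (−0.0088 to 0.064); the cause was not tested. The deviations of same-numbered arrays had a correlation of −0.22 across genes. The labels do not say whether the numbers pair the samples, and this value cannot decide it. With the replicate block 17 of the 30 genes fell, and 1353 genes were lower and 754 higher. In that fit the adjusted p of the named genes followed the size of the log2 change alone, without regard to each gene's own spread. Its calls of these genes therefore act as a cut on size and are no separate support for the main fit. A crossed replicate block, chosen after seeing the data, gave 20 of the 30, with 1690 lower and 1034 higher.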
